A study of Mus musculus with 18 samples.

Results

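The genes of autophagy were followed in RAW 264.7 cells, a mouse macrophage-like line, through *Ulk1*, *Becn1*, *Wipi1*, *Atg7*, *Map1lc3a*, *Map1lc3b*, *Gabarapl1*, *Gabarapl2*, *Optn* and *Nbr1*. These 10 genes were taken by symbol from the 56748 genes that the count file lists, and all 10 symbols were found. The study asked how TBHQ (tert-butylhydroquinone, a synthetic phenolic antioxidant) changes the transcripts of resting and stimulated macrophages, in 18 RNA libraries of 6 conditions with 3 replicates each. Control cells received no treatment, while the TBHQ stock was dissolved in DMSO. The TBHQ cells were given 5 µM for 4 h, the LPS cells 0.1 µg/mL of the bacterial stimulus lipopolysaccharide for 12 h, and the PIC cells 20 µg/mL of poly I:C, a mimic of viral double-stranded RNA, for 12 h. The LPS + TBHQ and PIC + TBHQ cells were given TBHQ for 4 h and then the stimulus for 12 h more. Cells with TBHQ alone were collected after those 4 h, and the paper places the control in the 12 h design, so TBHQ and the time of collection cannot be told apart in the comparison of TBHQ with the control.

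Autophagy encloses cytoplasm in a double membrane, the autophagosome, and delivers it to the lysosome. The ULK1 kinase starts the process, a lipid kinase complex that contains Beclin 1 marks the growing membrane, and proteins of the ATG8 family (the LC3 and GABARAP proteins) are attached to it by a conjugation system with ATG7 as its activating enzyme. Cargo receptors such as NBR1, optineurin and p62 bind both the cargo and the ATG8 proteins, and in macrophages the same machinery takes part in the handling of microbes and in limiting inflammatory signals.

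The depth ran from 14423390 to 18851626 counts per library. The control libraries had 14599770, 15410984 and 15932183 counts, those of TBHQ 16112546, 15552492 and 16267145, and those of LPS 14423390, 14432272 and 14502107. LPS + TBHQ had 16624933, 16487653 and 17533571, PIC 15178175, 15502461 and 18851626, and PIC + TBHQ 16212079, 14934775 and 16906576. Levels are given as the deposited FPKM, which are fragments scaled to the length of the gene and to the library, so that genes can be compared with each other. Their scaling of the library is nearly that of the TMM factors used in the tests. Whether libraries overlap was therefore judged under that scaling only. Differences between conditions are log2 fold changes (log2FC) of the counts from edgeR's quasi-likelihood test. Each has a standard error and a Benjamini-Hochberg adjusted p (FDR) over all 13691 genes tested. The standard error was computed from log2 CPM (counts scaled to the library, with a prior count of 2 added) of the 3 replicates on either side. It does not come from the edgeR fit, and at low counts, as for *Optn*, the added count narrows it. A gene was called at an FDR below 0.05.

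All 8 macrophage markers examined had a mean of at least 1 FPKM, led by *Lyz2* with 4021 FPKM, and their sum lay between 5585 and 6584 FPKM per library. Single markers differed between conditions. *Adgre1* had a mean of 18.4 FPKM in the control, 50.6 with LPS and 67.6 with PIC. For *Csf1r* these means were 153.7, 91.7 and 86.1, and for *Cd68* 670, 617 and 647. *Fcgr1* had 13.98 FPKM in the control and 5.77 with TBHQ. Of 5 T cell markers only *Lck* reached a mean of 1 FPKM, with 3.52. The sum of these 5 was 2.22 to 4.90 FPKM, and 2 of them were at 0 in every library. By condition *Lck* had a mean of 2.55 FPKM in the control, 2.27 with TBHQ, 4.05 with LPS and 4.70 with PIC. It had 3.03 with LPS + TBHQ and 4.54 with PIC + TBHQ. No B cell marker (0 of 4), epithelial marker (0 of 4) or fibroblast and endothelial marker (0 of 5) reached a mean of 1 FPKM. These sums were at most 0.354, 0.0279 and 0.120 FPKM, and 1, 3 and 1 of their genes were at 0 in every library.

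The 10 genes spanned a wide range of levels. *Gabarapl1* had the highest mean over the 18 libraries, with 28.2 FPKM, followed by *Gabarapl2* with 24.2, *Nbr1* with 20.6, *Atg7* with 12.9, *Map1lc3b* with 11.3 and *Becn1* with 10.4. *Map1lc3a* had 2.90, *Ulk1* 2.50, *Wipi1* 0.603 and *Optn* 0.229 FPKM. These means pool conditions that differ, and in the control *Gabarapl2* (24.1 FPKM) was above *Gabarapl1* (23.1 FPKM). The filter on low counts kept all 10. It asked for 0.635 CPM in at least 3 libraries, which 9 of the genes reached in all 18. *Optn* reached it in 12 libraries, namely all of LPS, PIC and PIC + TBHQ, 2 of the control, 1 of LPS + TBHQ and 0 of TBHQ. Its 0 to 23 counts per library leave its values with wide counting error.

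With TBHQ alone, 1 of the 10 genes was higher than in the control and 3 were lower, where 14.2% and 14.8% of all tested genes were. The lower genes were *Nbr1* and the low-count genes *Wipi1* and *Optn*, which a filter at a mean of 50 counts removes. LPS raised 4 of them, against 24.0% of all genes, and lowered 0, against 24.1% (in edgeR 0 were lower at an unadjusted p below 0.05 as well, and DESeq2 called 0). PIC raised 6, against 28.6%, and lowered 1, against 30.1%. LPS + TBHQ compared with LPS had 0 higher, against 11.7% (in edgeR 1 at an unadjusted p below 0.05, in DESeq2 0), and 1 lower, against 12.2%. PIC + TBHQ compared with PIC had 1 higher, against 15.8%, and 1 lower, against 15.5%. For PIC compared with LPS it was 1 higher, against 14.9%, and 1 lower, against 12.8%. The difference between the TBHQ effect with PIC and that with LPS was called for 0 genes upward and 0 downward, against 0.825% and 1.01% of all genes. There edgeR had 1 gene upward and 0 downward at an unadjusted p below 0.05, and DESeq2 called 0. In RNA from whole cultures, fewer cells of a type and less RNA per cell cannot be told apart.

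The median log2FC of the 10 genes was -0.07 with TBHQ, where it was -8.57e-05 over all tested genes. It was 0.14 with LPS (all genes -0.00396) and 0.205 with PIC (all genes -0.0146). For TBHQ on top of a stimulus it was -0.00333 with LPS (all genes 0.00229) and 0.0164 with PIC (all genes 0.00890). PIC against LPS gave 0.09 (all genes -0.00866), and the difference between the TBHQ effects 0.05 (all genes 0.00906). Without regard to sign, the median change of the 10 genes was smaller than that of all genes in every comparison. That size was 0.0952 with TBHQ (all genes 0.158), 0.145 with LPS (all genes 0.246) and 0.237 with PIC (all genes 0.331). These comparisons share control or stimulus libraries and are not independent of each other.

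The direction of small changes depended on the scaling of the libraries. TMM scaling was used for the reported values, and RLE size factors moved the median log2FC of all genes by 0.0184 at most. The total library size as the only scaling moved that median by -0.22 for PIC against the control and by -0.13 for PIC against LPS. Under it, LPS had 2 of the 10 genes up and 1 down, and PIC had 2 up and 2 down. For PIC against LPS it gave 0 up and 2 down (with RLE size factors 3 up and 1 down, and 2179 up and 1619 down of all genes). LPS + TBHQ against LPS then had 1 up and 1 down, and PIC + TBHQ against PIC 2 up and 0 down. The same scaling changed the split of all genes as well. With PIC it gave 2379 up and 6635 down where TMM gave 3917 and 4120, and for PIC against LPS it gave 985 and 4373 where TMM gave 2035 and 1752. With LPS it gave 2454 and 4558 (TMM 3283 and 3306), for LPS + TBHQ against LPS 2061 and 1401 (TMM 1601 and 1673), and for PIC + TBHQ against PIC 3398 and 1436 (TMM 2167 and 2118). For PIC against the control, the log2FC of *Map1lc3b*, *Atg7*, *Becn1* and *Gabarapl2* turned from positive to negative under it, and for PIC against LPS that of *Nbr1*, which was called with TMM, and those of *Map1lc3b* (-0.04), *Gabarapl1* (-0.05), *Becn1* (-0.00909) and *Optn* (-0.04), which were not called under either scaling. Against the control with LPS, *Wipi1* (-0.03) and *Becn1* (-0.02) turned likewise without a call. From negative to positive, also without a call, turned *Gabarapl1* (0.01) for PIC + TBHQ against PIC, and *Gabarapl1* (0.01), *Gabarapl2* (0.02) and *Becn1* (0.04) for the difference between the TBHQ effects. With PIC the values of *Map1lc3b*, *Atg7*, *Becn1* and *Gabarapl2* under it, between -0.15 and -0.03, lay above the median of all genes under the same scaling (-0.23), and for PIC against LPS so did that of *Nbr1*, -0.02 (median -0.14).

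**Figure D1:**
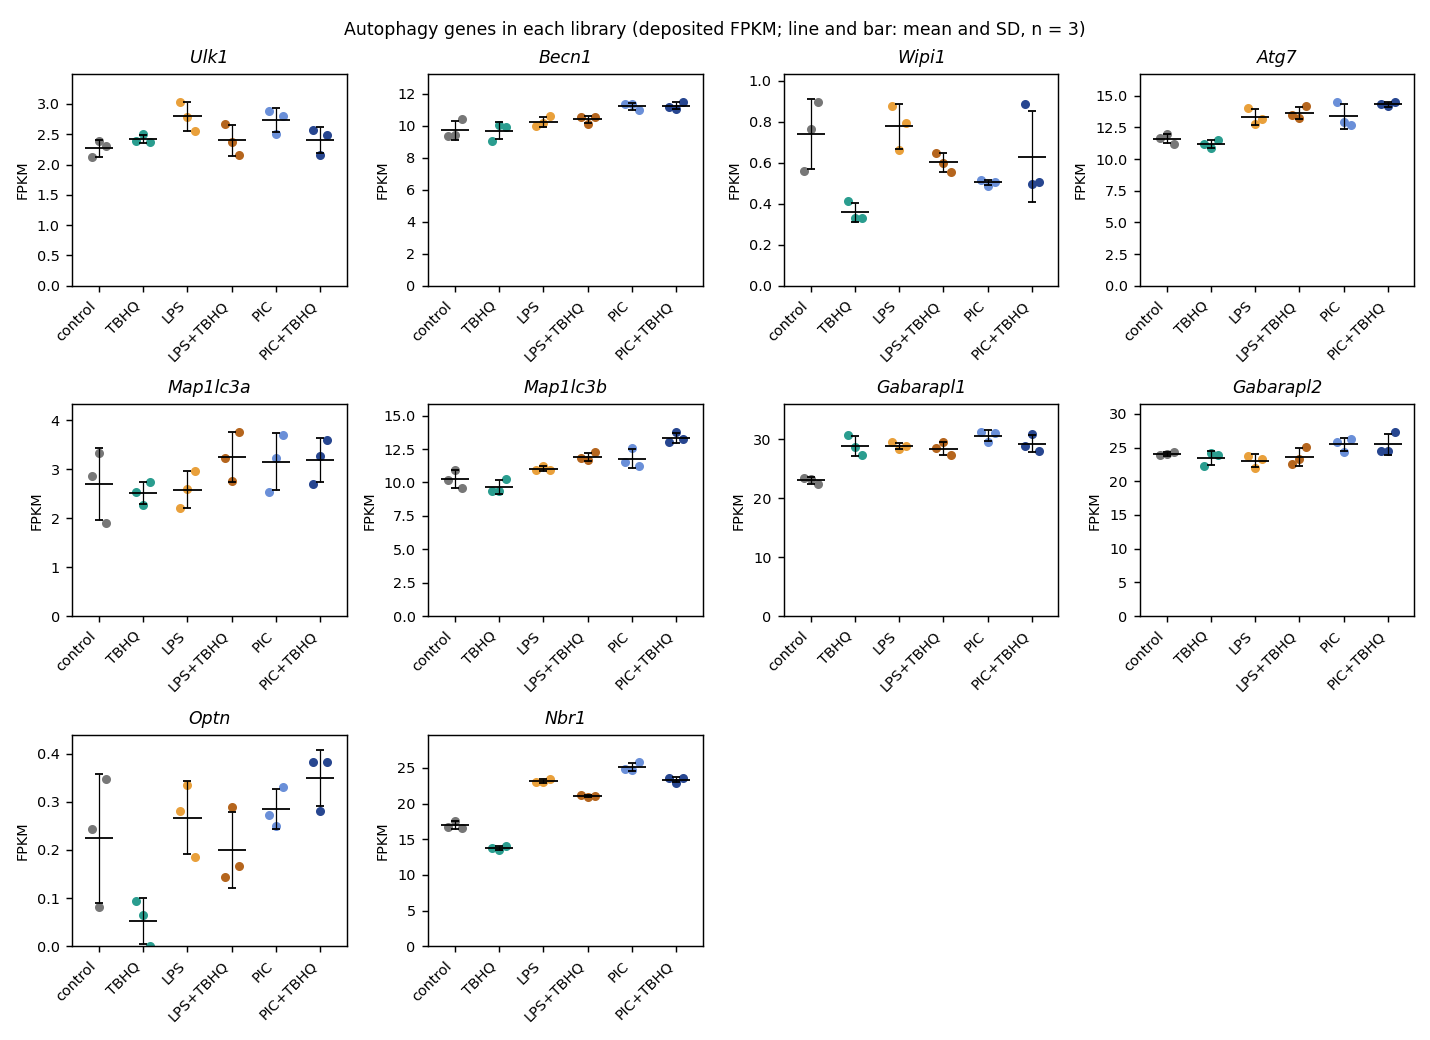
Level of each of the 10 autophagy genes as FPKM (vertical axis, from 0) in the 6 conditions (horizontal axis). Points are libraries, the long line is the mean and the bar the SD (n = 3). *Nbr1* lies between 13.6 and 14.1 FPKM with TBHQ, below the control libraries at 16.6 to 17.6, and above them in the stimulated conditions.

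*Ulk1* (ENSMUSG00000029512, chromosome 5, 110932354 to 110957963, minus strand in the authors' file) encodes the kinase that starts autophagy. It measured 2.12, 2.38 and 2.30 FPKM in the control libraries, 3.04, 2.79 and 2.55 with LPS, and 2.88, 2.51 and 2.80 with PIC. Every stimulated library without TBHQ lay above every control library. The log2FC was 0.29 (standard error 0.0861, FDR = 0.0124) with LPS and 0.25 (standard error 0.0783, FDR = 0.0263) with PIC. With TBHQ before the stimulus the libraries had 2.66, 2.38 and 2.15 FPKM for LPS and 2.57, 2.16 and 2.49 for PIC, and they overlapped both the stimulus alone and the control. The differences were -0.22 (FDR = 0.0900) for LPS + TBHQ against LPS and -0.17 (FDR = 0.194) for PIC + TBHQ against PIC. TBHQ alone gave 2.39, 2.50 and 2.38 FPKM and a log2FC of 0.09 (FDR = 0.539). The call with LPS was lost without control replicate 1 (0.25, FDR = 0.0635) or LPS replicate 1 (0.23, FDR = 0.0827), and its FDR ran from 0.00501 to 0.0827 over the alternatives. The call with PIC was lost without control replicate 1 (0.20, FDR = 0.111), PIC replicate 1 (0.23, FDR = 0.0759) or PIC replicate 3 (0.24, FDR = 0.0608), and its FDR ran from 0.0108 to 0.780. LPS + TBHQ against LPS was called without LPS replicate 3 (-0.28, FDR = 0.0487) or LPS + TBHQ replicate 1 (-0.30, FDR = 0.0367), within a range of 0.0367 to 0.363. With the total library size neither stimulus was called for *Ulk1* (0.20, FDR = 0.0794 with LPS, and 0.03, FDR = 0.780 with PIC).

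*Becn1* (ENSMUSG00000035086, chromosome 11, 101176778 to 101193112, minus strand) encodes Beclin 1 of the lipid kinase complex. Its 3 control libraries had 9.37, 9.41 and 10.4 FPKM and its PIC libraries 11.3, 11.3 and 10.97, which did not overlap. The rise with PIC was 0.19 (standard error 0.0514, FDR = 0.00136). LPS gave 9.96, 10.2 and 10.6 FPKM, overlapping the control, with a log2FC of 0.07 (FDR = 0.285). PIC + TBHQ, with 11.1 to 11.5 FPKM, overlapped PIC, and TBHQ changed the level by 0.02 (FDR = 0.832) there, by 0.02 (FDR = 0.833) with LPS and by -0.01 (FDR = 0.903) on its own, none of them called. With the total library size the PIC value was -0.03 (FDR = 0.599, the highest of all alternatives, with 0.000244 as the lowest). PIC against LPS was 0.12 (FDR = 0.0679), although all PIC libraries lay above all LPS libraries, and was called without LPS replicate 3 (0.15, FDR = 0.0482), with RLE size factors (FDR = 0.0463) and with the filter at a mean of 50 counts (FDR = 0.0464), within a range of 0.0463 to 0.905.

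*Wipi1* (ENSMUSG00000041895, chromosome 11, 109464157 to 109502793, minus strand) encodes a protein that binds the lipid made by this complex. It was low, with 24 to 67 counts per library. The control libraries had 0.561, 0.765 and 0.899 FPKM and the TBHQ libraries 0.412, 0.333 and 0.333. All TBHQ libraries lay below all control libraries, and the gene fell by 1.05 on the log2 scale (standard error 0.214, FDR = 0.00109). PIC gave 0.515, 0.490 and 0.509 FPKM, also below the control, with a log2FC of -0.58 (standard error 0.192, FDR = 0.0357), and LPS 0.878, 0.663 and 0.793, with 0.05 (FDR = 0.865). PIC lay below LPS in all libraries, by -0.63 (standard error 0.113, FDR = 0.0459). The call with TBHQ held in every alternative that gave a value at an FDR below 0.05 (FDR 0.000255 to 0.0153). Its log2FC ran from -1.21 without control replicate 1 to -0.35 with limma on log2(FPKM + 1), and the filter at a mean of 50 counts removed the gene. Over the alternatives the log2FC ran from -0.794 to -0.207 for PIC against the control and from -0.76 to -0.239 for PIC against LPS. Both calls with PIC were near the threshold. That against the control was lost in DESeq2 (-0.56, FDR = 0.102), without the filter on low counts (FDR = 0.0510), with limma on log2(FPKM + 0.1) (FDR = 0.0529), and without control replicate 2 (-0.56, FDR = 0.0761), control replicate 3 (-0.42, FDR = 0.190), PIC replicate 1 (-0.58, FDR = 0.0704), PIC replicate 2 (-0.54, FDR = 0.0875) or PIC replicate 3 (-0.57, FDR = 0.0777), within a range of 0.00364 to 0.190. That against LPS was lost in the same 3 settings (FDR = 0.0924, 0.0617 and 0.0534) and without LPS replicate 1 (-0.54, FDR = 0.158), LPS replicate 3 (-0.61, FDR = 0.101), PIC replicate 1 (-0.64, FDR = 0.0871), PIC replicate 2 (-0.61, FDR = 0.106), PIC replicate 3 (-0.63, FDR = 0.0931), control replicate 2 (-0.63, FDR = 0.0501) or LPS + TBHQ replicate 2 (-0.63, FDR = 0.0506), within a range of 0.0110 to 0.158.

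After TBHQ, *Wipi1* had 0.651, 0.601 and 0.556 FPKM with LPS and 0.886, 0.495 and 0.509 with PIC. The LPS + TBHQ libraries lay below the LPS libraries at a log2FC of -0.37 (FDR = 0.267), while PIC + TBHQ overlapped PIC, with replicate 1 above the other libraries, at 0.33 (FDR = 0.328). Neither was called. The difference between these TBHQ effects was 0.70 (FDR = 0.335) and was not called.

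*Atg7* (ENSMUSG00000030314, chromosome 6, 114620058 to 114837575, plus strand) encodes the enzyme that activates the ATG8 proteins for conjugation. The control libraries had 11.7, 12.0 and 11.2 FPKM, the LPS libraries 14.03, 12.8 and 13.1 and the PIC libraries 14.5, 12.9 and 12.7. Both stimuli lay above the control without overlap, with a log2FC of 0.19 for LPS (standard error 0.0474, FDR = 0.00183) and 0.19 for PIC (standard error 0.0676, FDR = 0.00150). The libraries with TBHQ before the stimulus, at 13.3 to 14.2 FPKM with LPS and 14.2 to 14.5 with PIC, overlapped the stimulus alone. TBHQ against no TBHQ gave 0.03 (FDR = 0.691) with LPS and 0.11 (FDR = 0.0859) with PIC, and -0.06 (FDR = 0.433) without a stimulus. The value with PIC was called without PIC replicate 1 (0.16, FDR = 0.0194) and with the total library size (0.18, FDR = 0.00359, the lowest of all alternatives, with 0.464 as the highest). The total library size also ended both calls against the control (0.10, FDR = 0.0874 with LPS, the highest of the alternatives, with 0.000399 as the lowest, and -0.03 with PIC, where the lowest FDR of the alternatives was 0.000240). Under the same scaling PIC against LPS was called (-0.13, FDR = 0.0305, the lowest of the alternatives, which reached 1.00), where it was -0.00217 (FDR = 0.981) with TMM.

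Of the ATG8 family, *Map1lc3a* (ENSMUSG00000027602, chromosome 2, 155118217 to 155119993, plus strand) and *Map1lc3b* (ENSMUSG00000031812, chromosome 8, 122317100 to 122325499, plus strand) encode LC3 proteins. *Map1lc3a* had 37 to 78 counts and 1.90 to 3.76 FPKM per library, all neighbouring conditions in its order of levels overlapped, and it was called in no comparison, with an FDR of 0.290 at the lowest for LPS + TBHQ against LPS (0.33). *Map1lc3b* measured 10.2, 10.9 and 9.59 FPKM in the control, 11.5, 12.6 and 11.2 with PIC, and 13.1, 13.8 and 13.2 with PIC + TBHQ. These 3 conditions did not overlap. Its log2FC was 0.19 (standard error 0.0738, FDR = 0.00210) with PIC, and adding TBHQ to PIC gave another 0.19 (standard error 0.0543, FDR = 0.00325). With LPS the libraries had 10.9, 11.2 and 10.97 FPKM, of which 1 was below the highest control library, and with LPS + TBHQ 11.8, 11.7 and 12.3. LPS + TBHQ lay above LPS in every library, but the difference of 0.11 (FDR = 0.117) was not called, nor was LPS against the control at 0.10 (FDR = 0.107) or TBHQ alone at -0.08 (FDR = 0.233). The TBHQ effects with PIC and with LPS were not separated by the test of their difference (0.08, FDR = 0.674). The call of PIC + TBHQ was lost without PIC replicate 3 (0.14, FDR = 0.0531, the highest of the alternatives, with 8.03e-05 as the lowest), and that of PIC with the total library size (-0.03, FDR = 0.601, likewise the highest, with 0.000501 as the lowest). LPS against the control was called without control replicate 2 (0.15, FDR = 0.0286, the lowest, with 0.850 as the highest) and with the filter at a mean of 50 counts (0.12, FDR = 0.0381), and LPS + TBHQ against LPS with the total library size (0.14, FDR = 0.0456, the lowest, with 0.317 as the highest). A gene on the opposite strand, *Zcchc14*, overlaps *Map1lc3b* and had 531 to 1007 counts per library. Whether the counting used strand is not given in the sources used here, so reads of the overlap may be shared. *Zcchc14*, looked at after the values of *Map1lc3b* were seen, was higher with TBHQ alone (0.31, FDR = 1.96e-05), with LPS + TBHQ against LPS (0.20, FDR = 0.00775) and with PIC + TBHQ against PIC (0.26, FDR = 0.000410) and lower with PIC against the control (-0.18, FDR = 0.00722). Its part in the values of *Map1lc3b* was not tested. Of the 50-base words in the *Map1lc3b* transcripts 5.77% also occur in other genes, most in the processed pseudogene *Gm6055*, which had 89 to 145 counts per library.

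*Gabarapl1* (ENSMUSG00000030161, chromosome 6, 129510123 to 129519309, plus strand) encodes a GABARAP-type protein. The control had 23.5, 23.2 and 22.4 FPKM, TBHQ alone 30.7, 28.8 and 27.3, LPS 29.5, 28.4 and 28.8, and PIC 31.3, 29.6 and 31.1. The 3 control libraries lay below all 15 others. Against the control the gene was higher by 0.33 with TBHQ (standard error 0.0544, FDR = 1.01e-05), 0.32 with LPS (standard error 0.0247, FDR = 6.47e-06) and 0.39 with PIC (standard error 0.0331, FDR = 7.63e-08), and these calls held in every alternative that used an FDR below 0.05 with no limit on the fold change. LPS + TBHQ had 28.5, 29.5 and 27.3 FPKM and PIC + TBHQ 28.9, 30.9 and 28.0. They overlapped the stimulus without TBHQ, at -0.03 (FDR = 0.786) and -0.06 (FDR = 0.450). Whether TBHQ acted differently with and without a stimulus was not tested.

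*Gabarapl2* (ENSMUSG00000031950, chromosome 8, 112667335 to 112680244, plus strand) encodes the other GABARAP-type protein among the 10 genes and had the smallest ratio of highest to lowest condition mean of the 10, lying between 21.9 and 27.3 FPKM over all libraries. The ratio of its highest condition mean, PIC, to its lowest, LPS, was 1.11. It was called in no comparison of the reported fit. With the total library size it was lower with LPS (-0.16, FDR = 0.0143, against -0.07, FDR = 0.296 with TMM) and with PIC (-0.15, FDR = 0.0139, against 0.06, FDR = 0.328). These were the lowest FDR of the alternatives, which reached 0.746 and 0.510. PIC lay above LPS in all libraries by 0.14 (standard error 0.0461, FDR = 0.0647), which was called without PIC replicate 2 (0.17, FDR = 0.0432) and in 4 of the other alternatives, RLE size factors, a mean of at least 50 counts and limma on FPKM with either pseudocount, within a range of 0.0432 to 0.925. Of its transcript sequence in words of 50 bases, 12.2% also occurs in other genes, most of it in the processed pseudogene *Gm3724*, which had 2 to 10 counts per library. The effect of these shared words on its counts was not tested.

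The family as a whole was dominated by *Gabarap*, which is in the wider list below and is named here for its level. It made up 72.6% of the summed FPKM of the 5 family genes in the control (71.7% to 73.1%), followed by *Gabarapl2* with 10.6% to 11.3% per library, *Gabarapl1* with a mean of 10.5%, *Map1lc3b* 4.67% and *Map1lc3a* 1.23%. The sum was 219 ± 6.75 FPKM (SD, n = 3) in the control and 197 ± 4.99 with TBHQ alone. It was 229 ± 7.15 for LPS and 222 ± 6.004 for LPS + TBHQ, 250.5 ± 3.86 for PIC and 236 ± 5.47 for PIC + TBHQ. With TBHQ alone the share of *Gabarap* was 66.1% to 67.9% and that of *Gabarapl1* 13.7% to 16.03%, without overlap with the control, where *Gabarapl1* held 10.3% to 10.99%. The share of *Gabarapl2* was 11.7% to 12.1% with TBHQ alone, also above the control without overlap. In the same comparison *Gabarap* was lower by -0.26 (FDR = 3.48e-06) and *Gabarapl1* higher, while *Gabarapl2* was not called (-0.04, FDR = 0.651).

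Of the cargo receptors, *Nbr1* (ENSMUSG00000017119, chromosome 11, 101442975 to 101472777, plus strand) encodes a receptor for ubiquitin-tagged cargo. The control had 16.8, 17.6 and 16.6 FPKM and TBHQ alone 13.8, 13.6 and 14.1. LPS had 23.1, 23.0 and 23.5 and LPS + TBHQ 21.2, 20.9 and 21.0. PIC had 24.9, 24.7 and 25.8 and PIC + TBHQ 23.5, 22.9 and 23.6. In the order of levels from PIC down to TBHQ, PIC + TBHQ and LPS were the only neighbours whose libraries overlapped, and *Nbr1* was called in all 6 direct comparisons. It rose by 0.44 with LPS (standard error 0.0275, FDR = 3.03e-12) and by 0.55 with PIC (standard error 0.0318, FDR = 4.52e-15), and it fell by 0.30 with TBHQ alone (standard error 0.0296, FDR = 1.53e-07). LPS + TBHQ was below LPS by -0.14 (standard error 0.0113, FDR = 0.00395). These 4 calls held in every alternative that used an FDR below 0.05. Over the alternatives the log2FC ran from 0.331 to 0.576 with PIC and from 0.354 to 0.467 with LPS. PIC + TBHQ was below PIC by -0.10 (standard error 0.0235, FDR = 0.0456), and PIC above LPS by 0.11 (standard error 0.0210, FDR = 0.0285). The test of the difference between the TBHQ effects gave 0.05 (FDR = 0.758).

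The smaller differences of *Nbr1* were near the threshold. PIC + TBHQ against PIC was lost in a fit of the compared conditions alone (-0.10, FDR = 0.0654), without the filter on low counts (-0.10, FDR = 0.147), with the total library size (-0.03, FDR = 0.621), and on leaving out any of 12 libraries, with the log2FC between -0.11 and -0.09. The FDR was 0.0533 without control replicate 1, 0.0514 without control replicate 3 and 0.0972 without PIC replicate 3. It was 0.0521, 0.0561 and 0.0548 without TBHQ replicates 1, 2 and 3, 0.0558, 0.0582 and 0.0557 without those of LPS + TBHQ, and 0.0646, 0.124 and 0.0602 without those of PIC + TBHQ. Over all alternatives its FDR ran from 0.0103 to 0.621. PIC against LPS was lost in the fit of the compared conditions alone (0.11, FDR = 0.0872), without the filter (0.11, FDR = 0.0992), without LPS replicate 1 (0.10, FDR = 0.0767), LPS replicate 2 (0.11, FDR = 0.0618) or PIC replicate 3 (0.09, FDR = 0.110), and turned to -0.02 (FDR = 0.666) with the total library size, within a range of 0.00759 to 0.666.

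*Optn* (ENSMUSG00000026672, chromosome 2, 5025453 to 5068862, minus strand) encodes optineurin. The control libraries had 14, 5 and 22 counts and the TBHQ libraries 6, 4 and 0, or 0.243, 0.0818 and 0.347 against 0.0938, 0.0652 and 0 FPKM. The groups overlapped, since control replicate 2 lay below TBHQ replicate 1. The fitted log2FC was -2.05 (standard error 0.781, FDR = 0.00728), and its size ran from -2.74 without TBHQ replicate 1 to -0.21 with limma on log2(FPKM + 1), where the pseudocount is larger than the FPKM of the gene. It was lost without control replicate 3 (-1.57, FDR = 0.0903) or TBHQ replicate 3 (-1.47, FDR = 0.0600), within a range of 0.00152 to 0.0903 over the alternatives that gave a value. The filter removed the gene at a mean of 50 counts and in the fit of the compared conditions alone. All conditions with a stimulus overlapped the control, with counts of 10 to 18 with LPS, 9 to 18 with LPS + TBHQ, 13 to 21 with PIC and 15 to 23 with PIC + TBHQ. The gene was called in none of the other comparisons.

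**Figure D2:**
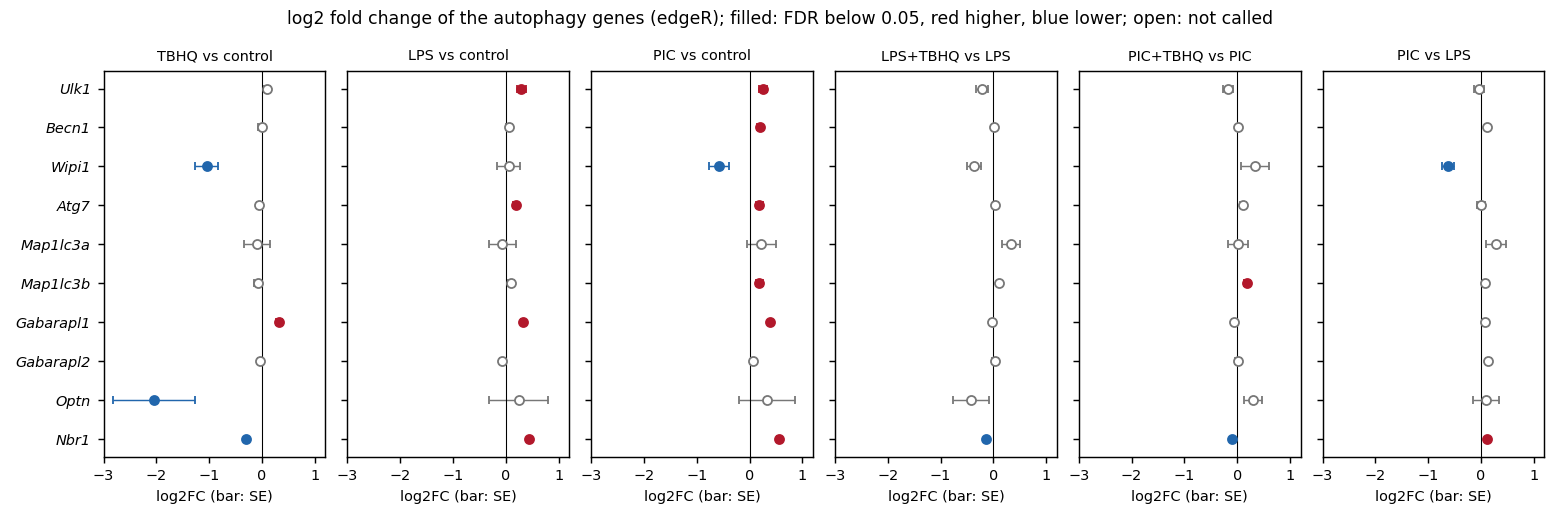
log2FC (horizontal axis) of the 10 genes (vertical axis) in the 6 direct comparisons, from edgeR over 18 libraries. The bar is the standard error computed from log2 CPM, not from the edgeR fit. Filled points have an FDR below 0.05, red above and blue below 0. *Nbr1* is filled in all 6 panels, with 0.55 for PIC against the control and -0.30 for TBHQ, and the widest bar is that of *Optn* with TBHQ.

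Likeness of pattern was measured as Pearson's r of log2 CPM over the 18 libraries, against 10450 other genes with a mean of at least 50 counts, for the 3 genes whose condition means spanned the widest range. That range was 2.33 for *Optn*, 1.05 for *Wipi1* and 0.85 for *Nbr1* on the log2 scale. *Optn* and *Wipi1* had means of 13.3 and 41.6 counts, below the limit set for the other genes. Counting error therefore enters their ranges and values of r, and its part was not tested. The genes most like *Nbr1* were *Saa3* (r = 0.994), *Rhoc* (0.994), *Cd53* (0.991), *Anxa6* (0.989) and *Spp1* (0.989). For *Wipi1* they were *Slc9b2* (0.862), *Polr3gl* (0.840), *Osbpl2* (0.819), *Amdhd2* (0.817) and *Sel1l* (0.810), and for *Optn* *Kif3a* (0.875), *Gm7665* (0.875), *Lrp12* (0.841), *Acbd4* (0.836) and *Rhoq* (0.830). These values describe 6 conditions with 3 libraries each, whose points share treatment and scaling.

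The wider list of 69 autophagy genes holds the 10 genes and 59 others by role, and 68 were tested, since *Stbd1* had too few counts. TBHQ alone had 7 of them up (10.3%, all genes 14.2%) and 22 down (32.4%, all genes 14.8%), each share being of the genes tested. LPS had 27 up (39.7%, all genes 24.0%) and 6 down (8.82%, all genes 24.1%), and PIC 34 up (50%, all genes 28.6%) and 10 down (14.7%, all genes 30.1%). LPS + TBHQ against LPS had 3 up (4.41%, all genes 11.7%) and 14 down (20.6%, all genes 12.2%). PIC + TBHQ against PIC had 5 up (7.35%, all genes 15.8%) and 17 down (25%, all genes 15.5%), and PIC against LPS 15 up (22.1%, all genes 14.9%) and 6 down (8.82%, all genes 12.8%). For PIC against LPS, leaving out LPS replicate 1 or PIC replicate 2 gave 3 down and leaving out LPS replicate 3 or PIC replicate 3 gave 2, while DESeq2 and limma on log2(FPKM + 0.1) gave 3. The median log2FC of the list was -0.07 with TBHQ (all genes -8.57e-05), 0.10 with LPS (all genes -0.00396) and 0.15 with PIC (all genes -0.0146). It was -0.0142 for LPS + TBHQ against LPS (all genes 0.00229), -6.94e-05 for PIC + TBHQ against PIC (all genes 0.00890) and 0.06 for PIC against LPS (all genes -0.00866). Without regard to sign, the median change of the list was smaller than that of all genes in each of these comparisons. That size was 0.117 with TBHQ (all genes 0.158), 0.131 with LPS (all genes 0.246) and 0.213 with PIC (all genes 0.331). For TBHQ on top of a stimulus it was 0.0855 with LPS (all genes 0.141) and 0.105 with PIC (all genes 0.168). PIC against LPS had 0.0960 (all genes 0.155). With the total library size the split was 20 up and 14 down for LPS (all genes 2454 and 4558), 19 and 23 for PIC (2379 and 6635), 6 and 11 for LPS + TBHQ against LPS (2061 and 1401), 15 and 9 for PIC + TBHQ against PIC (3398 and 1436), and 6 and 18 for PIC against LPS (985 and 4373). The split of the list thus moved in the same direction as that of all genes. No gene of the list was called for the difference between the TBHQ effects (in edgeR 4 were up and 1 down at an unadjusted p below 0.05, and DESeq2 called 0).

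The counts by role are small and stand beside the shares of all tested genes, which were 24.0% up and 24.1% down with LPS, 28.6% and 30.1% with PIC, and 14.2% and 14.8% with TBHQ alone. Of the ULK1 complex, 3 of the 5 genes were higher with LPS, *Ulk1*, *Rb1cc1* (0.68) and *Atg13* (0.55), and with PIC the same 3 were higher and *Ulk2* was lower (-0.41). Of the 8 genes of the lipid kinase complexes, *Rubcn* was higher (0.16) and *Pik3c3* lower (-0.20) with LPS. With PIC *Becn1* and *Ambra1* (0.21) were higher, and *Pik3c3* (-0.43) and *Uvrag* (-0.25) lower. Of the 9 ATG9, ATG2 and WIPI genes 3 were higher with LPS, *Atg2a* (0.35), *Wipi2* (0.61) and *Vmp1* (0.47), and with PIC these 3 and *Atg9a* (0.15), while *Wipi1* was lower. Of the 11 conjugation enzymes 4 were higher with LPS, *Atg4a* (0.34), *Atg4d* (0.22), *Atg7* and *Atg12* (0.43), and *Atg16l2* was lower (-0.42). With PIC the same 4 and *Atg4b* (0.20) were higher and *Atg16l2* (-0.36) was lower. Of the 7 fusion genes *Snap29* (0.26) and *Epg5* (0.13) were higher with LPS, and *Vamp8* (-0.12), *Plekhm1* (-0.12) and *Tecpr1* (-0.21) lower. With PIC *Snap29* (0.34) and *Rab7* (0.07) were higher, and *Plekhm1* (-0.11) and *Tecpr1* (-0.34) lower. Of the 9 kinases and upstream regulators 6 were higher with LPS and 6 with PIC, where *Mtor* was lower (-0.18).

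With TBHQ alone the lower genes of these roles were *Atg13* (-0.47) of the ULK1 complex, *Uvrag* (-0.23) and *Rubcn* (-0.20) of the lipid kinase complexes, *Wipi1*, and *Atg3* (-0.17), *Atg5* (-0.22) and *Atg10* of the conjugation enzymes, of which *Atg4d* (0.21) was higher. Of the fusion genes *Vamp8* (-0.20), *Epg5* (-0.23), *Rab7* (-0.11) and *Tecpr1* (-0.28) were lower. Of the upstream genes *Tbk1* (0.12), *Rptor* (0.24) and *Prkaa1* (0.19) were higher, and *Trp53inp1* and *Trp53inp2* lower. For TBHQ on top of a stimulus the shares of all genes were 11.7% up and 12.2% down with LPS and 15.8% and 15.5% with PIC. *Rb1cc1* and *Atg13* were lower there, by -0.27 and -0.34 with LPS and by -0.39 and -0.46 with PIC. So were *Atg3* (-0.12 and -0.23) and *Vmp1* (-0.16 and -0.17), with LPS also *Atg14* (-0.30) and *Atg12* (-0.17), and with PIC also *Wipi2* (-0.15) and *Vamp8* (-0.13). *Tecpr1* was higher with both (0.47 and 0.59), and with PIC also *Uvrag* (0.28) and *Plekhm1* (0.18). Of the upstream genes *Ddit4*, *Sesn2*, *Trp53inp1* and *Foxo3* were lower for both stimuli and *Tbk1* (-0.17) with PIC, while *Mtor* was higher with LPS + TBHQ than with LPS (0.15). The counts by role were made with TMM scaling only.

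Of the 14 cargo receptor genes tested, 7 were up with LPS (50%, all genes 24.0%) and *Ncoa4* (-0.47) was down (7.14%, all genes 24.1%). With PIC 9 were up (64.3%, all genes 28.6%) while *Ncoa4* (-0.46) and *Fundc1* (-0.21) were down (14.3%, all genes 30.1%). TBHQ alone had 8 down (57.1%, all genes 14.8%), with *Sqstm1* and *Wdfy3* (0.24) up (14.3%, all genes 14.2%). The 8 include *Optn*, whose counts were low and whose TBHQ libraries overlapped the control. TBHQ on top of a stimulus had 4 down with LPS (28.6%, all genes 12.2%) and 5 with PIC (35.7%, all genes 15.5%), and 1 up with each (7.14%, all genes 11.7% and 15.8%). The latter was *Retreg1*, the gene of a receptor of the endoplasmic reticulum, which was higher than with the stimulus alone, by 0.31 (FDR = 3.11e-06) with LPS and 0.29 (FDR = 8.17e-06) with PIC, without overlap. *Sqstm1*, the gene of the receptor p62, had the highest level of the receptors, with 617, 579 and 578 FPKM in the control libraries, 1460, 1349 and 1406 with LPS, and 1711, 1785 and 1701 with PIC. These groups did not overlap. It rose by 1.24 with LPS (FDR = 5.41e-28) and by 1.54 with PIC (FDR = 3.39e-31), and it was also higher with TBHQ alone (0.40, FDR = 4.02e-13). With TBHQ before the stimulus it was lower than with the stimulus alone, by -0.12 (FDR = 0.00243) with LPS and -0.09 (FDR = 0.0249) with PIC. *Bnip3*, the gene of a mitochondrial receptor, had 26.7, 25.8 and 25.9 FPKM in the control and 8.94, 8.21 and 9.40 with TBHQ, and fell by 1.56 (FDR = 4.33e-21). LPS raised it to 46.5, 47.0 and 44.9 FPKM (0.81, FDR = 5.14e-16) and PIC to 64.1, 64.6 and 67.7 (1.31, FDR = 1.16e-22). With TBHQ before the stimulus it had 21.8, 19.2 and 20.8 FPKM with LPS and 25.0, 27.4 and 27.4 with PIC, below all libraries of the stimulus alone by -1.16 (FDR = 1.80e-19) and -1.29 (FDR = 5.10e-21). Of the words of 50 bases in its transcripts 16.5% occur in other genes, most in the processed pseudogene *Gm16439*, which had 0 counts in every library.

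Among the upstream regulators, *Ddit4* and *Sesn2* encode inhibitors of the mTORC1 kinase, which itself restrains autophagy. *Ddit4* had 2.97, 3.11 and 2.93 FPKM in the control, 21.6, 18.9 and 21.4 with LPS and 24.0, 25.0 and 24.6 with PIC. It rose by 2.77 with LPS (standard error 0.0643, FDR = 7.81e-22) and 3.01 with PIC (standard error 0.0308, FDR = 1.69e-23). With TBHQ it was lower than with the stimulus alone by -1.38 (8.79, 7.79 and 7.24 FPKM, FDR = 1.77e-14) with LPS and by -1.02 (12.2, 13.3 and 10.7 FPKM, FDR = 1.15e-11) with PIC, with no overlap in either case. *Sesn2* rose by 1.51 with LPS (FDR = 3.44e-23) and 1.82 with PIC (FDR = 3.50e-26). *Trp53inp1*, a p53-inducible gene whose protein binds ATG8 proteins, had 1.06, 1.29 and 1.01 FPKM in the control and 0.806, 0.661 and 0.562 with TBHQ (-0.73, FDR = 0.000327). It rose to 2.20, 1.79 and 1.96 FPKM with LPS (0.81, FDR = 4.04e-06) and 2.65, 2.48 and 2.26 with PIC (1.12, FDR = 3.25e-09). With TBHQ before the stimulus it was lower by -1.11 (FDR = 6.22e-08) with LPS and -1.71 (FDR = 3.88e-12) with PIC. Every alternative called these changes of *Trp53inp1*, but their size varied. It ran from -0.88 to -0.34 with TBHQ alone, 0.49 to 0.93 with LPS, 0.71 to 1.23 with PIC, -1.18 to -0.63 for LPS + TBHQ against LPS and -1.82 to -0.99 for PIC + TBHQ against PIC, the smallest in each case from limma on log2(FPKM + 1). *Trp53inp2*, which encodes a related protein, fell by 0.63 with TBHQ alone (FDR = 5.45e-09), and *Atg10*, of the conjugation system, fell by 0.61 (FDR = 0.0122, and -0.68 to -0.43 over the alternatives). *Tecpr1*, whose protein acts in the fusion with lysosomes, was the only gene of the list to pass 1.5-fold upward, an FDR below 0.05 and no overlap with TBHQ on top of a stimulus, with 9.40, 9.58 and 9.14 FPKM with PIC + TBHQ against 6.62, 6.09 and 6.16 with PIC (0.59, FDR = 1.39e-12). This change of 1.501-fold was at the limit. Over the alternatives the log2FC ran from 0.51 with limma on log2(FPKM + 1) to 0.65 with the total library size, and it lay below 1.5-fold in some of them, among them DESeq2 and RLE size factors (0.57 each).

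**Figure D3:**
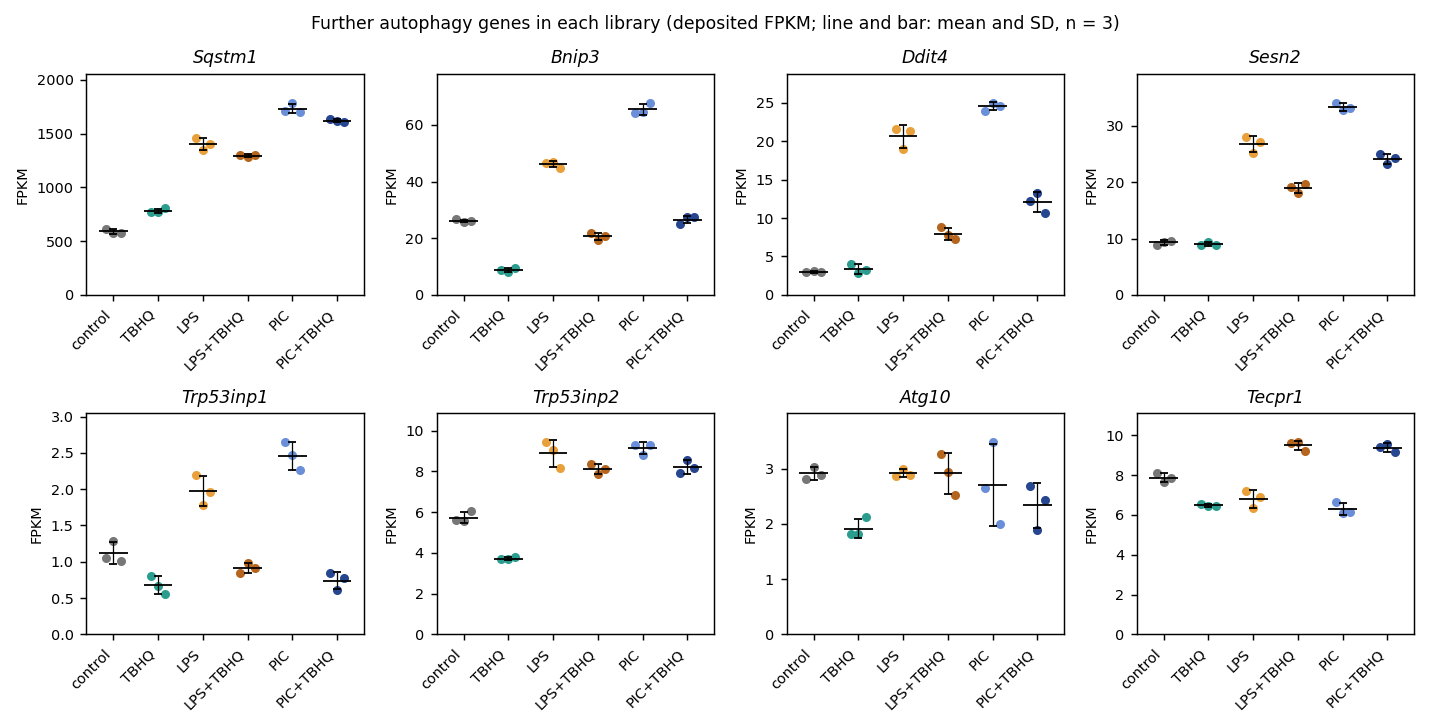
Level of 8 genes of the wider list as FPKM (vertical axis, from 0) in the 6 conditions (horizontal axis). Points are libraries, the long line is the mean and the bar the SD (n = 3). *Bnip3* lies at 8.21 to 9.40 FPKM with TBHQ and at 64.1 to 67.7 with PIC, and *Tecpr1* lies highest in both conditions with TBHQ and a stimulus.

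Promoters were read for the 10 genes from RefSeq on GRCm38.p6, as 250 bases before to 50 after the gene start. There were 9 windows for 8 of the 10 genes (2 for *Nbr1*), and none for *Map1lc3a* and *Becn1*. Their median GC content was 55.7%, where it was 52.7% over all promoters. Over both strands, TCACGTGA (the CLEAR-type E-box) was in 0 of the 9 windows and 0.974% of all 32851 promoters, GGANTTTCC (kappaB type) in 0 and 1.25%, TGACNNNGC (the core of the antioxidant response element) in 1 and 12.4%, and GAAANNGAA (interferon-stimulated response element type) in 1 and 8.56%. The 2 matches, in *Nbr1* and *Map1lc3b*, are shown in lower case with the motif in capitals as the only matches among the 9 windows. A match describes these letters and no binding. Their positions are on GRCm38.p6 and differ from those of the authors' files. The *Nbr1* match begins 9 bases before the RefSeq start, outside the first exon that begins at 101552654 but within the span of another annotated *Nbr1* transcript, at chr11:101552635-101552663 on the plus strand. The *Map1lc3b* match begins 4 bases after the RefSeq start, within the first exon and its untranslated region in GENCODE M21 and within the span of the gene *Gm20388*, at chr8:121590432-121590460 on the plus strand.
Nbr1: atcggcttggGAAAGGGAAatccaaccag
Map1lc3b: gcgagtcaccTGACTCGGCtgcggactga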

How the data were processed

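Poly(A) RNA of RAW 264.7 cells was sequenced in paired-end reads of 150 bases. The paper calls the libraries strand-specific, while the labels mention directional and non-directional ones. The authors deposited raw fragment counts per gene, made with HISAT2 2.0.5, StringTie 1.3.3b and featureCounts 1.5.0-p3 as named in the submitters' processing notes. The authors also deposited FPKM, which in each library equals counts per length and total times a constant of 0.943 to 1.12. Multiplied by the TMM factor, this constant is 1.00 to 1.02, so FPKM is scaled nearly as TMM scales. The gene length the authors list is in bases. Counts were tested in R 4.3.3 with edgeR 4.0.16 (TMM, filterByExpr, 1 coefficient per condition), and DESeq2 1.42.0 and limma 3.58.1 were used as alternatives, with Python 3.11.15 for tables. The alternatives were RLE and total-size scaling, other filters and thresholds, limma on FPKM, a fit of the compared conditions alone, a replicate block and each library left out. The fits were tested on simulated data. Transcripts were checked for words of 50 bases shared with other genes, with a limit of 10%. Marker lists checked the cell type. The 10 genes and all lists were chosen with earlier results of these data known. Named genes are the 10 genes, up to 5 highest and 5 lowest wider-list genes per comparison with an FDR below 0.05, no overlap and at least 1.5-fold, and the 5 genes in pattern most like the 3 widest members. Other names, such as those in role counts of 5 or fewer, were chosen after values were seen. The labels do not state separate cultures, while the paper names biological replicates, so p-values reflect the spread between these samples. Protein sequences were not used here.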

Additional observations from a re-analysis of the deposited data

How the results depend on the processing

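Over the alternatives, the total number of wider-list genes called stayed within 1.5 times the reported number in every comparison, also on leaving out each library in turn (25 to 30 with TBHQ, 28 to 33 with LPS and 38 to 46 with PIC against the control). This total does not show direction. With the total library size, PIC had 19 up and 23 down in place of 34 and 10. PIC + TBHQ against PIC had 15 and 9 in place of 5 and 17, and PIC against LPS 6 and 18 in place of 15 and 6. The larger side stayed the same with LPS (20 and 14) and for LPS + TBHQ against LPS (6 and 11). The stricter thresholds were applied to the 10 genes only, and their number called moved more. A mean of at least 50 counts, which removes *Optn* and *Wipi1*, gave 2 with TBHQ in place of 4. The total library size gave 4 with PIC in place of 7 and 2 for LPS + TBHQ against LPS in place of 1. PIC + TBHQ against PIC had 1 in place of 2 with the compared conditions only, without the filter and at an FDR below 0.01. PIC against LPS had 1 in place of 2 with DESeq2 and with the compared conditions only, 4 with RLE size factors, and 0 without the filter and at an FDR below 0.01. Where an FDR below 0.01 and also a change beyond 2 on the log2 scale were asked for, 1 gene was called with TBHQ (*Optn*) and 0 in the other comparisons, as the limit on the fold change excludes changes of this size. For the other settings the cause was not tested. Leaving out a library gave 1 to 2 for LPS + TBHQ against LPS, 0 to 3 for PIC + TBHQ against PIC and 0 to 2 for PIC against LPS.

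The direction turned in 5 results, each with the total library size, which moved the median of all genes in the same direction. Against the control with PIC these were *Map1lc3b* at -0.0317, *Gabarapl2* at -0.15 (FDR = 0.0139), *Atg7* at -0.0317 and *Becn1* at -0.0308, and for PIC against LPS *Nbr1* at -0.0227. A further 58 of 1871 values, in 25 results, changed sign without a call in either fit. DESeq2 gave no adjusted p for 4 values of the difference between the TBHQ effects. Of 360 values of the 20 called results with 1 library left out, 325 kept their call and 35 lost it. The call was lost at least once in 8 of the 20 results. Most of the libraries left out belong to neither condition compared and act only through the shared fit. The share of calls kept is therefore no measure of how far a call rests on its own libraries.

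Same-numbered libraries did not deviate together (r between -0.0444 and 0.0645 over 45 pairs), and the numbers share nothing else that the labels give. With the replicate block the 10 genes had 4, 4, 7, 1, 2, 2 and 0 calls in the 7 comparisons, the same numbers as without it. The low depth of *Optn* and *Wipi1* limits what can be said of these genes.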
